A study of Mus musculus with 14 samples.

Results

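Muscle precursors leave the somites and move into the limb bud guided by a pair of ligand and receptor systems. HGF (hepatocyte growth factor), which the limb mesenchyme secretes, binds the receptor tyrosine kinase MET on the precursors and frees them from the somite, with GAB1 as the adaptor docked to the activated receptor. The chemokine CXCL12 is secreted by limb mesenchyme as well and attracts precursors that carry its G protein-coupled receptor CXCR4, while the atypical receptor ACKR3 binds and clears CXCL12. The 6 genes of both systems, *Met*, *Hgf*, *Gab1*, *Cxcr4*, *Cxcl12* and *Ackr3*, were chosen by these roles, with earlier results of these data known. They were followed among the 24454 genes of the count table, to describe which cell population of the forelimb bud holds the ligand and which the receptor.

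RNA-seq libraries were made from 5 populations that were sorted by FACS from pooled mouse forelimb buds. All embryos carried the *Sox9* IRES-EGFP reporter (EGFP expressed together with *Sox9*) on a mixed Swiss Albino background, and the labels name no treatment. S9-SCA-1+ cells (2 libraries, replicates 2 and 3) lacked EGFP and JAG1 and carried the surface antigen SCA-1. According to the study, they and the S9-JAG1+ cells were taken from within the PDGFRα-positive cells, a step that their labels do not name. S9-JAG1+ limb bud mesenchymal progenitors (LMPs, 3 libraries) lacked EGFP and SCA-1 and carried the Notch ligand JAG1, whereas S9-Pαhi LMPs (3 libraries) lacked EGFP, JAG1 and SCA-1 and had high surface PDGFRα. Osteo-chondrogenic progenitors (OCPs, S9+Pαhi, 3 libraries) were positive for EGFP with high PDGFRα. These 4 populations were isolated at E10.5. Chondroblasts (3 libraries) were isolated at E11.5. They are labeled S9+COL2+, but the gate in their labels is the one given for OCPs and names no stain for COL2. Population and stage thus cannot be told apart in any comparison with them. All populations were gated free of dead cells and of cells with endothelial, blood or epithelial surface antigens. As libraries come from pools, the p-values below measure the spread between pools. A level in sorted cells is an average, and fewer expressing cells cannot be told apart from less RNA per cell.

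The libraries held 20316583 to 29162751 counts (median 25554498). *Ly6a*, which encodes SCA-1, averaged 3.23 CPM (counts scaled to a common library total) in S9-SCA-1+ cells, and the next highest population, OCPs, held 0.247 CPM. The 7 muscle precursor markers *Pax3*, *Lbx1*, *Myf5*, *Pax7*, *Myod1*, *Myog* and *Eya2* summed to 925.2-987.9 CPM in S9-SCA-1+ cells and to 0.942-2.10 CPM in S9-JAG1+ LMPs, 4.02-4.58 CPM in S9-Pαhi LMPs, 2.68-3.47 CPM in OCPs and 18.0-19.6 CPM in chondroblasts, where *Eya2* made up most of the sum. The 12 limb mesenchyme markers summed to 612-772 CPM in S9-SCA-1+ cells and to 2601-4742 CPM in the other populations. One S9-SCA-1+ library also stood apart by its red blood cell transcripts, whose 6 markers summed to 3220 CPM, compared with 115.5 CPM in the other S9-SCA-1+ library and at most 73.2 CPM elsewhere. Leaving out either S9-SCA-1+ library left the same number of 4 members called in the comparison of these cells with the other populations.

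The sequences just upstream of the start sites are shown for the 3 receptors, each of which had its highest population mean in S9-SCA-1+ cells. They are the 250 bases before a RefSeq start site (build GRCm38.p6), written on the gene's own strand, with matches to the searched motifs in capitals. *Met* lies at chr6:17463707-17463956 (+ strand), *Cxcr4* at chr1:128592300-128592549 (- strand) and *Ackr3* at chr1:90203730-90203979 (+ strand). The *Met* window precedes a start site inside the gene, whose full span begins at 17463349, so it is not upstream of that span.
Met: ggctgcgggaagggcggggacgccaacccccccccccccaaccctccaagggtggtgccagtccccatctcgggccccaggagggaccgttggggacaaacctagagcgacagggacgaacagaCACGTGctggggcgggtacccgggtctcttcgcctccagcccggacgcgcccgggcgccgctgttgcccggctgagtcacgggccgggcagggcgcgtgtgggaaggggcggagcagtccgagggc
Cxcr4: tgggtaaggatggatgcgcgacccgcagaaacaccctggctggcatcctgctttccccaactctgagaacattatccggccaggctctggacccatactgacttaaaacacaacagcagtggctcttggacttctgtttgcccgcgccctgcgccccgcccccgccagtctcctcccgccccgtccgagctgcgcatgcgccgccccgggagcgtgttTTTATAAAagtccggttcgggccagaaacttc
Ackr3: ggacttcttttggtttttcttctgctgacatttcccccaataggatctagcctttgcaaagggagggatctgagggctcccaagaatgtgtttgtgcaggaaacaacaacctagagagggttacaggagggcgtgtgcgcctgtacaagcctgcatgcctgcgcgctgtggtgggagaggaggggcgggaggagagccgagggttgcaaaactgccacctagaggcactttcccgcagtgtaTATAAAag
The *Met* window, with 74.0% G and C, held the hypoxia core ACGTG on both strands as 1 palindrome, its first base 126 bases before that start site. ACGTG occurs on either strand in 19.6% of the 32851 promoter windows of 300 bases. The TATA box letters TATAAA were found on both strands, overlapping, 32 and 30 bases before the *Cxcr4* start and on 1 strand 8 bases before the *Ackr3* start, and in 13.6% of all windows. This last motif was added after the sequences had been seen. The E-box CAGCTG (16.3% of all windows) and the homeodomain half-sites TAAT and ATTA separated by any 2 bases (0.390%) had no match in the windows of any of the 6 genes, and *Hgf*, *Gab1* and *Cxcl12* held none of the 4 motifs.

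*Met*, the HGF receptor (chromosome 6, 17463349-17573980, + strand, mm10), was high in S9-SCA-1+ cells and low in the other 4 populations. The study had already named *Met* among the myoblast genes that S9-SCA-1+ cells express, from the same libraries. S9-SCA-1+ libraries held 719.0 and 659.6 CPM. S9-JAG1+ LMPs held 1.50, 1.47 and 1.90 CPM, and S9-Pαhi LMPs 4.27, 5.15 and 3.44 CPM. OCPs held 6.69, 6.18 and 6.55 CPM, and chondroblasts 7.20, 8.96 and 8.56 CPM. No values of any 2 populations overlapped. The mean in S9-SCA-1+ cells was thus 83.7-fold that of chondroblasts, the next population, and 424.9-fold that of S9-JAG1+ LMPs. Compared with the other 4 populations (the mean of their log2 levels), *Met* was higher by a log2 fold change of 7.29 ± 0.09 (SE; adjusted p = 2.04e-16 by the quasi-likelihood test of edgeR, adjusted by Benjamini-Hochberg). Differences are called here where the adjusted p did not exceed 0.1 and the log2 fold change reached 1.2 in either direction. Against the 4 populations 4 of the 6 members were called, *Met*, *Cxcr4* and *Ackr3* as higher (4.46% of all 15125 tested genes) and *Hgf* as lower (6.80%).

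The low *Met* levels outside S9-SCA-1+ cells were themselves graded. *Met* in S9-JAG1+ LMPs was below that of S9-Pαhi LMPs (log2 fold change -1.41 ± 0.16, edgeR adjusted p = 2.56e-05), OCPs (-1.99 ± 0.16, adjusted p = 3.09e-07) and chondroblasts (-2.34 ± 0.15, adjusted p = 3.25e-08). S9-Pαhi LMPs, OCPs and chondroblasts differed by less than the fold limit, although all 10 pairs of populations passed the p limit for *Met*. These levels correspond to 0.235% of the S9-SCA-1+ level in S9-JAG1+ LMPs, 0.622% in S9-Pαhi LMPs, 0.939% in OCPs and 1.19% in chondroblasts. *Pax3*, a transcription factor of muscle precursors known to activate *Met*, was at 0.133%, 0.166%, 0.161% and 0.0381% of its S9-SCA-1+ level in the same order, and *Lbx1*, a homeobox gene that marks precursors on their way into the limb, at 0.0729%, 0.250%, 0.213% and 0.0915%. The means of these 2 genes did not rise in the order of *Met*. For *Pax3* the order of the first 3 populations is not resolved. It held 0.617 ± 0.675 CPM (SD) in S9-JAG1+ LMPs, 0.768 ± 0.226 CPM in S9-Pαhi LMPs and 0.747 ± 0.416 CPM in OCPs. For 2 genes of muscle commitment and differentiation, the means were higher in OCPs and chondroblasts than in the LMPs. In the same order of populations *Myod1* was at 0.120%, 0.276%, 1.13% and 2.97% and *Myog* at 0.666%, 0.714%, 2.75% and 17.7%. Both were barely detected in S9-JAG1+ LMPs (0.0272 ± 0.0236 CPM each, SD) and S9-Pαhi LMPs (0.0627 ± 0.109 and 0.0291 ± 0.0260 CPM). Their order between these 2 populations is thus not resolved. Outside S9-SCA-1+ cells, the means of the other 3 muscle precursor markers, *Myf5*, *Pax7* and *Eya2*, were highest in chondroblasts. They did not follow the order of *Met* among the remaining populations. For *Myf5* the order is not resolved either (0.266 ± 0.146 CPM in chondroblasts and 0.218 ± 0.119 CPM in S9-JAG1+ LMPs, SD). *Pax7* was barely detected in both LMP populations and OCPs (means of at most 0.0271 CPM). The part of admixed muscle cells in these low *Met* levels was not tested.

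*Cxcr4*, the signaling receptor of CXCL12 (chromosome 1, 128588199-128592299, - strand), was likewise high in S9-SCA-1+ cells. It held 81.0 and 91.9 CPM in S9-SCA-1+ cells, from 2317 and 2580 counts. All other libraries held between 7 and 49 counts. These amounted to 0.300, 0.419 and 1.19 CPM in S9-JAG1+ LMPs and 0.488, 0.752 and 0.398 CPM in S9-Pαhi LMPs. OCPs held 0.406, 0.618 and 1.19 CPM, and chondroblasts 1.65, 1.54 and 0.510 CPM. The S9-SCA-1+ libraries thus stood far above the other 12, among which the 4 populations overlapped one another. *Cxcr4* was 70.1-fold higher in the S9-SCA-1+ mean than in that of chondroblasts, with a log2 fold change of 6.81 ± 0.24 against the other 4 populations (edgeR adjusted p = 5.14e-11). Unlike the other 5 members, *Cxcr4* did not pass the joint test of S9-JAG1+ LMPs, S9-Pαhi LMPs, OCPs and chondroblasts (largest log2 difference 1.16, edgeR adjusted p = 0.179), which called 23.5% of all genes. The outcome of this test changed with single libraries: without the third S9-JAG1+ library, which held 30 counts where the other two held 7 and 10, the largest difference was 1.75 and called (edgeR adjusted p = 0.0483), and without the third chondroblast library, with 13 counts where the others held 49 and 45, it was 1.46 and called (adjusted p = 0.0472).

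*Ackr3*, the scavenging receptor of CXCL12 (chromosome 1, 90203980-90215724, + strand), was not confined to S9-SCA-1+ cells. Its level was 48.3 and 49.1 CPM in S9-SCA-1+ cells and 39.2, 33.9 and 43.7 CPM in OCPs. Chondroblasts held 34.5, 32.6 and 20.5 CPM. S9-Pαhi LMPs held 7.48, 5.72 and 5.63 CPM, and S9-JAG1+ LMPs 4.49, 2.26 and 1.47 CPM. There were thus a high set of 3 populations and a low set of 2, without any overlap between the sets. *Ackr3* exceeded the mean of the other 4 populations in S9-SCA-1+ cells (log2 fold change 2.04 ± 0.21, edgeR adjusted p = 3.10e-06). By population, the log2 fold change was 4.16 ± 0.32 against S9-JAG1+ LMPs and 2.95 ± 0.29 against S9-Pαhi LMPs (edgeR adjusted p = 1.88e-07 and 3.71e-06), whereas that against OCPs was 0.32 ± 0.27 (adjusted p = 0.376) and that against chondroblasts 0.74 ± 0.27 (adjusted p = 0.0329, below the fold limit). OCPs and chondroblasts were not distinguishable (0.41 ± 0.25, edgeR adjusted p = 0.238). OCPs exceeded S9-Pαhi LMPs 6.20-fold and S9-JAG1+ LMPs 14.3-fold in the fitted ratios. The difference between both LMP populations lay at the fold limit (log2 fold change -1.20 ± 0.31 for S9-JAG1+ minus S9-Pαhi LMPs, edgeR adjusted p = 0.0127) and was no longer called without S9-JAG1+ replicate 2 or 3 (-1.09 and -0.91) or without S9-Pαhi replicate 1 (-1.06).

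The ligand *Hgf* (chromosome 5, 16553495-16619439, + strand) was lowest in S9-SCA-1+ cells, where its receptor was highest, while both genes rose from S9-JAG1+ LMPs over S9-Pαhi LMPs to OCPs. OCPs held 54.3, 49.3 and 42.2 CPM. S9-Pαhi LMPs held 34.0, 35.3 and 26.2 CPM, and S9-JAG1+ LMPs 9.42, 7.71 and 4.95 CPM. Chondroblasts held 8.20, 5.85 and 5.81 CPM, and S9-SCA-1+ cells 3.81 and 2.78 CPM. Every OCP library was thus above every S9-Pαhi library, both were above all others, and the lowest libraries were those of S9-SCA-1+ cells. In S9-SCA-1+ cells *Hgf* was below the mean of the other 4 populations, with a log2 fold change of -2.33 ± 0.24 (edgeR adjusted p = 4.08e-06), with the fitted level of OCPs 14.7-fold that of S9-SCA-1+ cells. OCPs and S9-Pαhi LMPs passed the p limit without reaching the fold limit (-0.61 ± 0.20 for S9-Pαhi LMPs minus OCPs, edgeR adjusted p = 0.0596). S9-JAG1+ LMPs were below S9-Pαhi LMPs (-2.12 ± 0.21, edgeR adjusted p = 7.87e-06) and did not differ detectably from chondroblasts (0.15 ± 0.22, adjusted p = 0.582). S9-SCA-1+ cells were below S9-JAG1+ LMPs by less than the fold limit (-1.15 ± 0.27, edgeR adjusted p = 0.00492), and this difference was called without the replicate 2 library of S9-SCA-1+ cells (-1.40) or the third S9-JAG1+ library (-1.38).

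*Hgf* also separated the OCPs from the chondroblasts. Its fitted level was 7.31-fold higher in OCPs (log2 fold change 2.87 ± 0.22, edgeR adjusted p = 1.42e-06), and *Hgf* was the single member called between these populations, where 7.77% of all genes were called. The 484 exon bases that *Hgf* shares with Gm43489, a gene model on the same strand, make up 6.74% of its exon bases, and reads there cannot be assigned to either of the 2.

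*Cxcl12*, the ligand of CXCR4 and ACKR3 (chromosome 6, 117168535-117181368, + strand), was highest in OCPs and chondroblasts, and its level in S9-SCA-1+ cells lay close to that in S9-Pαhi LMPs. OCPs held 239.3, 231.2 and 255.3 CPM, and chondroblasts 224.1, 242.9 and 193.8 CPM. S9-Pαhi LMPs held 67.9, 63.7 and 41.1 CPM, and S9-SCA-1+ cells 50.4 and 41.9 CPM. S9-JAG1+ LMPs held 11.7, 9.43 and 4.20 CPM. These values form 3 tiers, with OCPs and chondroblasts overlapping in the top tier and S9-Pαhi LMPs and S9-SCA-1+ cells overlapping in the middle tier. Within the tiers the log2 fold change was 0.14 ± 0.24 for OCPs minus chondroblasts (edgeR adjusted p = 0.714) and -0.32 ± 0.28 for S9-SCA-1+ cells minus S9-Pαhi LMPs (adjusted p = 0.457). Each of the 8 pairs of populations from different tiers was called. The largest, S9-JAG1+ LMPs minus OCPs, was -4.84 ± 0.29 (edgeR adjusted p = 2.57e-08), a 28.7-fold difference.

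Against the mean of the other 4 populations *Cxcl12* was not called in S9-SCA-1+ cells (log2 fold change -0.63 ± 0.24, edgeR adjusted p = 0.0533), and the value was -0.09 when chondroblasts were left out (adjusted p = 0.829). S9-SCA-1+ cells held 19.1% of the OCP level of *Cxcl12* and 6.78% of that of *Hgf*. The 12 limb mesenchyme markers were spread widely, with a median of 26.4% of their OCP levels, above both ligands. *Pdgfra*, which encodes the antigen PDGFRα, was lowest at 4.79% (34.4 ± 14.7 CPM, SD, n = 2) and the single marker below *Hgf*. *Tbx5* and *Hand2*, at 8.07% and 10.6%, were the only others below *Cxcl12*. *Msx2* and *Lhx2* were at 66.4% and 81.7%, and *Msx1* was the single marker above 100%, at 347.1%. The part of mesenchymal cells among the S9-SCA-1+ cells in their ligand levels was not tested.

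*Gab1*, the adaptor of MET (chromosome 8, 80764431-80880519, - strand), was expressed in all populations and varied least. S9-SCA-1+ cells held 68.3 and 65.5 CPM, and S9-JAG1+ LMPs 41.4, 41.9 and 42.9 CPM. S9-Pαhi LMPs held 73.4, 70.2 and 61.1 CPM. OCPs held 77.3, 74.9 and 89.2 CPM, and chondroblasts 106.0, 100.9 and 120.7 CPM. S9-JAG1+ LMPs were below and chondroblasts above all other libraries, and S9-SCA-1+ cells overlapped with S9-Pαhi LMPs. *Gab1* did not follow *Met*: its level in S9-SCA-1+ cells gave a log2 fold change of -0.08 ± 0.09 (edgeR adjusted p = 0.494). Of the 10 pairs of populations 8 passed the p limit, but S9-JAG1+ LMPs minus chondroblasts was the only pair called (-1.38 ± 0.10, edgeR adjusted p = 5.87e-08). An antisense gene, Gm31105, shares 266 bases (5.23%) with the *Gab1* exons, and whether the counts used the strand is not stated.

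**Figure D1:**
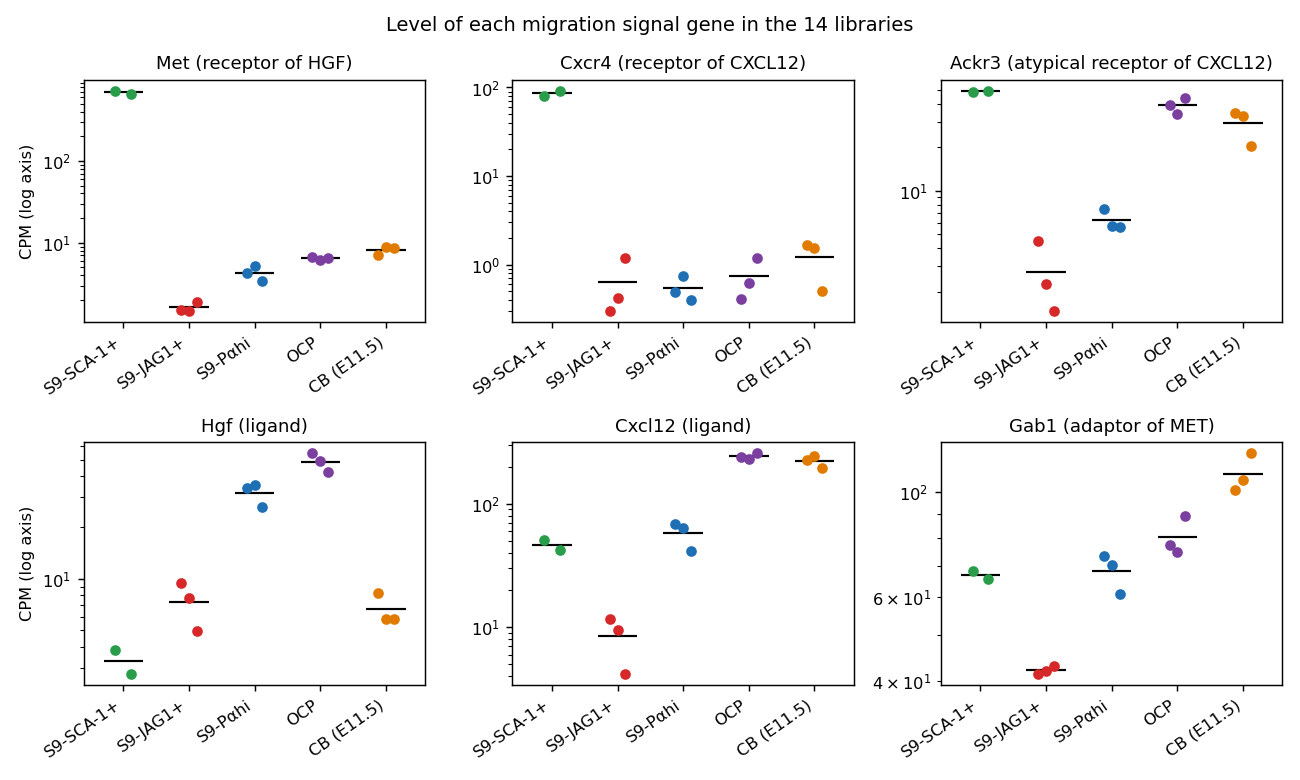
CPM (vertical, log axis, a separate range per panel) of the 6 genes in each of the 14 libraries, by population (horizontal). Points are libraries and black lines population means. *Met* and *Cxcr4* are high in S9-SCA-1+ cells (means 689.3 and 86.4 CPM), *Hgf* is lowest there (3.29 CPM) and highest in OCPs (48.6 CPM), *Cxcl12* peaks in OCPs and chondroblasts (242.0 and 220.3 CPM) and *Gab1* spans 42.1-109.2 CPM.

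Over all pairs of populations, 33 of the 60 member-pair differences were called: 8 of 10 for *Cxcl12*, 7 each for *Met* and *Ackr3*, 6 for *Hgf*, 4 for *Cxcr4* and 1 for *Gab1*. Per pair, 732 (S9-Pαhi LMPs minus OCPs) to 2941 (S9-SCA-1+ cells minus chondroblasts) of the 15125 tested genes were called. Against S9-JAG1+ LMPs, S9-SCA-1+ cells had 4 members called higher (6.53% of all genes) and 0 lower (4.91%). Against S9-Pαhi LMPs, 3 were higher (4.96%) and *Hgf* was lower (5.58%). Against OCPs, 2 were higher (4.73%) and 2 lower, *Hgf* and *Cxcl12* (8.03%). Against chondroblasts, 2 were higher (5.56%) and *Cxcl12* was lower (13.9%). *Met* and *Cxcr4* were among the members called higher in each of these 4 pairs. S9-JAG1+ LMPs had 4 members called lower than in S9-Pαhi LMPs (4.42% of all genes), 4 lower than in OCPs (9.03%) and 4 lower than in chondroblasts (15.2%), and 0 called higher in these pairs (2.58%, 3.46% and 4.17%). S9-Pαhi LMPs differed from OCPs in 2 members, *Cxcl12* and *Ackr3* (4.84% of all genes), both lower in S9-Pαhi LMPs, and from chondroblasts in 3 (12.7%), of which *Hgf* was higher in S9-Pαhi LMPs. Pairs that include the same population share its libraries.

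**Figure D2:**
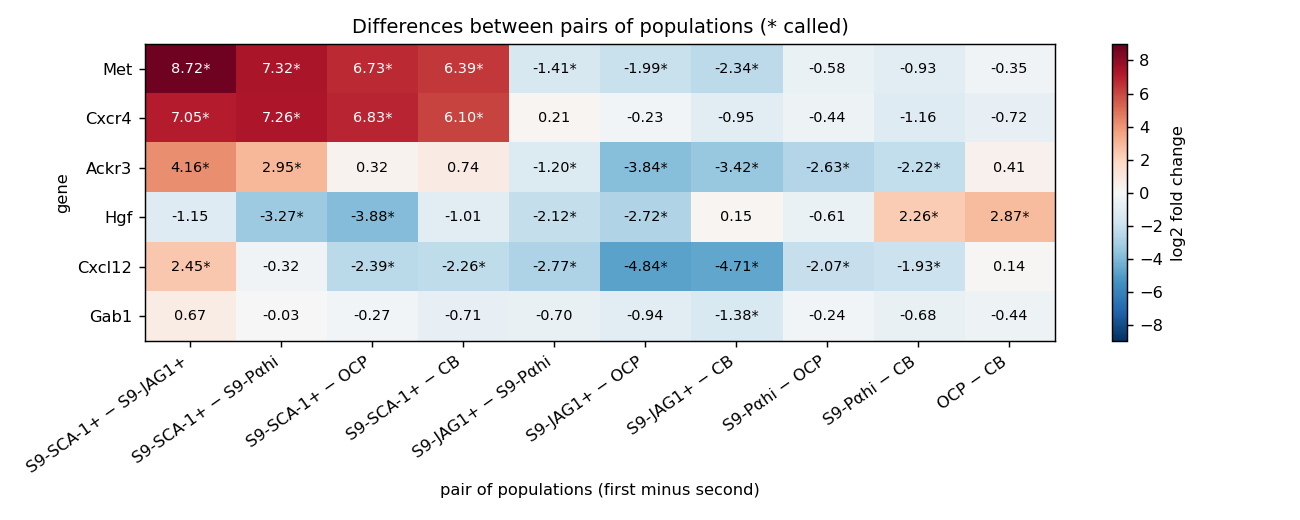
Log2 fold change of each gene (rows) in each pair of populations (columns, first minus second; red, first higher; blue, first lower), with called differences marked by an asterisk. *Met* and *Cxcr4* are above 6 in all 4 pairs with S9-SCA-1+ cells, the column OCP minus CB (chondroblasts) has a single call, *Hgf* at 2.87, and *Gab1* has 1 call in its row.

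CPM divided by the exon length in kilobases (RPKM) allows levels to be compared between genes. In S9-SCA-1+ cells the order of the mean RPKM was *Met* (103.6 ± 6.31, SD, n = 2), *Cxcr4* (47.7 ± 4.23), *Ackr3* (21.0 ± 0.247), *Gab1* (13.4 ± 0.399), *Cxcl12* (6.44 ± 0.841) and *Hgf* (0.794 ± 0.176). In OCPs it was *Cxcl12* (33.8 ± 1.71, n = 3), *Ackr3* (16.8 ± 2.11), *Gab1* (16.1 ± 1.53), *Hgf* (11.7 ± 1.47), *Met* (0.973 ± 0.0396) and *Cxcr4* (0.407 ± 0.225). The receptors with the highest RPKM in S9-SCA-1+ cells were thus the members with the lowest RPKM in OCPs. In S9-JAG1+ LMPs no ligand or receptor exceeded a mean of 1.77 RPKM (*Hgf*), whereas *Gab1* held 8.43 ± 0.156 RPKM.

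Within the same library, the ligand and receptor of each system changed places between S9-SCA-1+ cells and the mesenchymal populations. In S9-SCA-1+ cells *Met* RPKM was 132.0-fold that of *Hgf* (log2 ratio of *Hgf* to *Met* -7.04 ± 0.23, SD, n = 2). *Hgf* exceeded *Met* 7.08-fold in S9-JAG1+ LMPs (log2 ratio 2.82 ± 0.67, n = 3) and 12.0-fold in both S9-Pαhi LMPs and OCPs (3.58 ± 0.11 and 3.58 ± 0.18). In chondroblasts the 2 genes were near each other (0.35 ± 0.45), and the sign there depends on the exon length used: it was -0.23 with the union of GENCODE exons. The log2 ratio of *Cxcl12* to *Cxcr4* was -2.89 ± 0.32 in S9-SCA-1+ cells, and 4.76 ± 0.36 in S9-Pαhi LMPs, 6.52 ± 0.73 in OCPs and 5.67 ± 0.80 in chondroblasts. In S9-JAG1+ LMPs it ranged from -0.16 to 3.31, with *Cxcr4* at 7 to 30 counts.

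*Ackr3* was placed between these patterns. It stood below *Cxcr4* in S9-SCA-1+ cells, where *Cxcr4* RPKM was 2.26-fold that of *Ackr3*, and 45.3-fold above *Cxcr4* in OCPs and 20.4-fold above it in chondroblasts. The log2 ratio of *Cxcl12* to *Ackr3* was -1.71 ± 0.21 in S9-SCA-1+ cells, 0.03 ± 0.36 in S9-JAG1+ LMPs, 1.55 ± 0.31 in S9-Pαhi LMPs, 1.02 ± 0.11 in OCPs and 1.32 ± 0.28 in chondroblasts. It too depends on the exon length used: in S9-SCA-1+ cells and S9-JAG1+ LMPs it was -0.96 and 0.78 with the longest GENCODE transcript, and -0.09 and 1.65 with no length correction. OCPs and chondroblasts thus held *Cxcl12* together with its scavenging receptor, and S9-Pαhi LMPs held *Cxcl12* with little of either receptor. S9-SCA-1+ cells held both receptors, with *Cxcl12* at a level not distinguishable from that of S9-Pαhi LMPs.

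**Figure D3:**
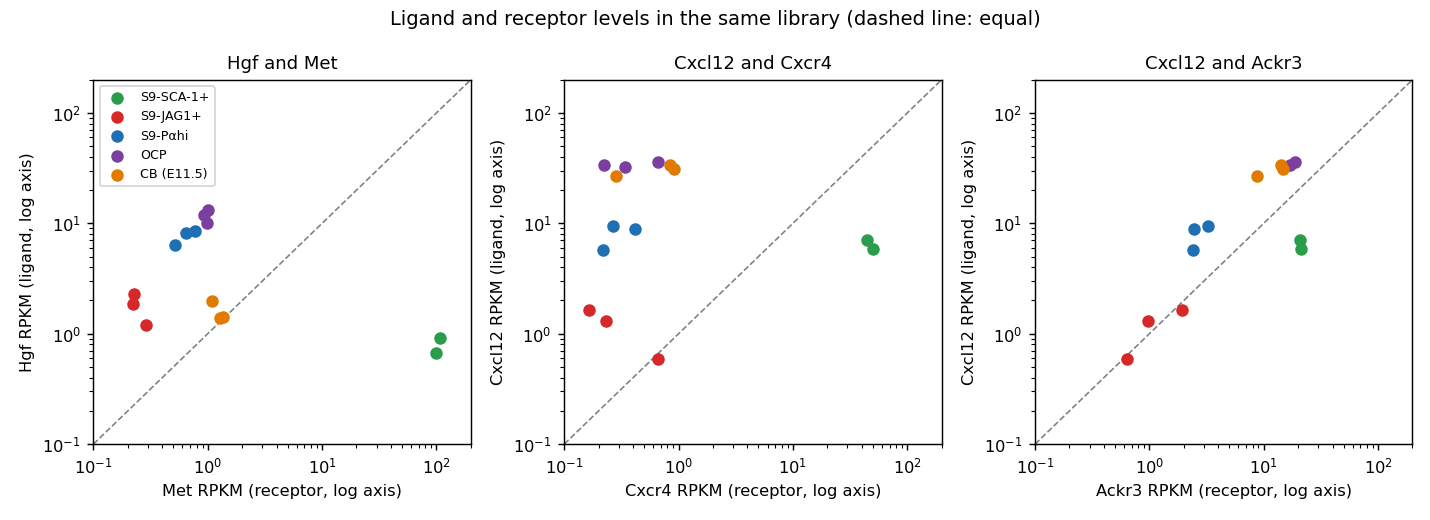
Ligand RPKM (vertical) against receptor RPKM (horizontal) in the same library, on log axes, for *Hgf* and *Met*, *Cxcl12* and *Cxcr4*, and *Cxcl12* and *Ackr3*. Points are the 14 libraries, colored by population, and the dashed line marks equal levels. Both S9-SCA-1+ libraries lie below the line in all 3 panels. The mesenchymal populations lie above the line or near it, and the S9-JAG1+ libraries scatter around it for *Cxcl12* and *Ackr3*.

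As CXCR4 and ACKR3 are also known from endothelial and blood cells, the markers of these cell types were examined. The 12 endothelial markers summed to 24.9-29.4 CPM in S9-SCA-1+ cells and to 11.3-22.7 CPM elsewhere. *Kdr* (8.51 CPM, compared with 0.690-1.26 CPM elsewhere) and *Egfl7* (10.4 CPM, compared with 6.34-8.33 CPM) made up most of the sum in S9-SCA-1+ cells. *Plvap* was also highest there (2.61 CPM, compared with 0.581-1.96 CPM), and *Tek* was at 3.38 CPM (0.790-3.79 CPM elsewhere). *Pecam1* and *Cdh5*, which encode the antigen used for depletion (CD31) and VE-cadherin, were at 0.354 and 0.564 CPM (0.301-0.783 and 0.485-1.23 CPM elsewhere). The 10 leukocyte markers summed to 11.9-16.8 CPM over all 14 libraries. *Coro1a* (10.8 CPM in S9-SCA-1+ cells, 10.9-12.5 CPM elsewhere) and *Laptm5* (2.65 CPM, 1.39-3.33 CPM elsewhere) made up most of the sum. *Ptprc*, which encodes the depleted antigen CD45, was highest in S9-SCA-1+ cells (0.318 CPM, 0-0.152 CPM elsewhere). So were *Csf1r* (0.141 CPM), *Cx3cr1* (0.0890 CPM) and *Itgam* (0.0356 CPM), all at low levels. *Fcer1g*, *Lyz2* and *Spi1* were highest in S9-JAG1+ LMPs, and *Tyrobp* was at 0 in S9-SCA-1+ cells. Red blood cell markers were given above, and *Cxcr4* averaged 86.4 CPM in these cells. The part of endothelial or blood cells in the *Cxcr4* and *Ackr3* levels was not tested. The ectoderm markers (12) summed to 8.55-9.09 CPM in S9-SCA-1+ cells and to 6.49-25.5 CPM elsewhere, and the 9 neural crest and Schwann cell markers to 21.2-24.5 CPM in S9-SCA-1+ cells and to 38.2-79.1 CPM elsewhere.

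**Figure D4:**
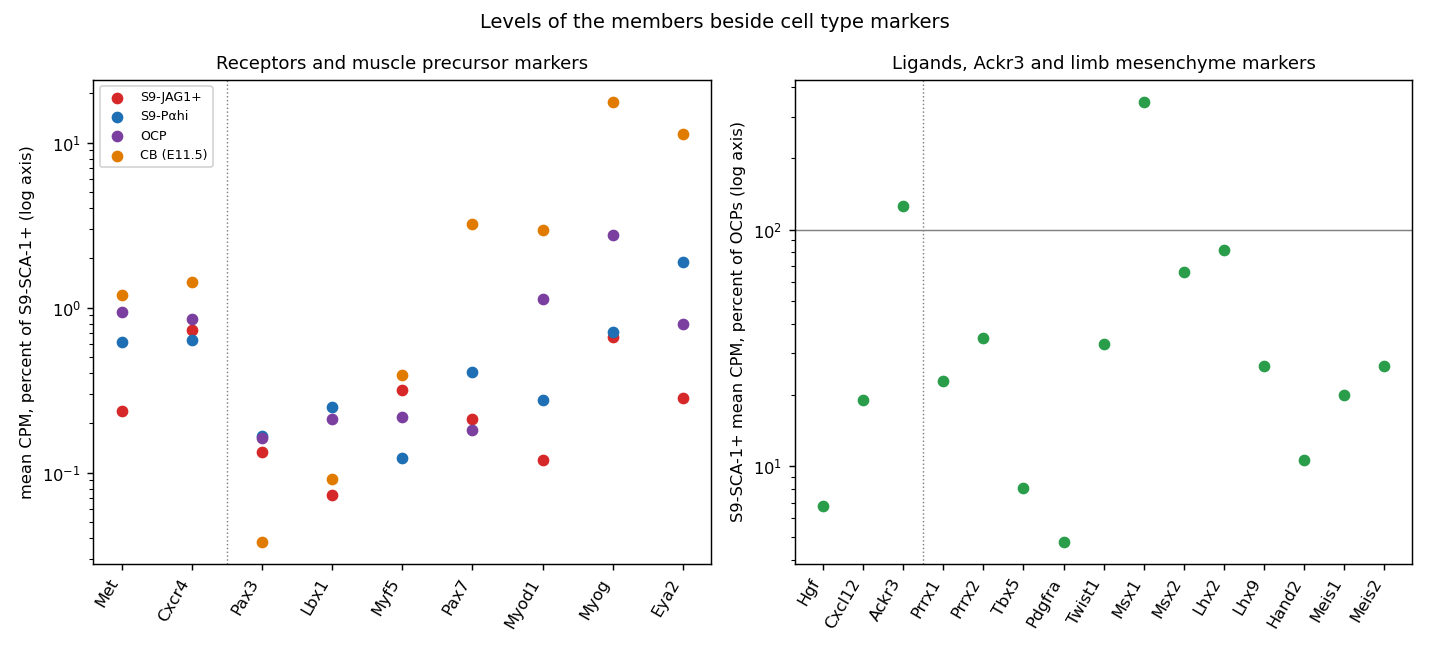
Left, the mean CPM of *Met*, *Cxcr4* and the 7 muscle precursor markers in the other 4 populations as a percent of the S9-SCA-1+ mean (log axis; 1 point per population). Right, the S9-SCA-1+ mean of *Hgf*, *Cxcl12*, *Ackr3* and the 12 limb mesenchyme markers as a percent of the OCP mean (log axis; gray line, 100%). *Met* and *Cxcr4* lie between 0.235% and 1.43%, *Myog* reaches 17.7% in chondroblasts, and on the right *Hgf* lies at 6.78%, *Cxcl12* at 19.1% and *Ackr3* at 125.1%.

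The genes around MET were taken from lists of the pathway. Of 15 genes for the activation of HGF and the inhibition of its proteases 7 passed the filter on low counts, and 1 was called lower and 0 higher in the comparison of S9-SCA-1+ cells with the other 4 populations (6.80% and 4.46% of all genes), with a median log2 fold change of -0.55 compared with -0.01 over all genes. *Spint2*, an inhibitor of HGF-activating proteases and the gene of the list with the highest mean level, was lower in S9-SCA-1+ cells (7.17 ± 1.23 CPM, SD, n = 2) than in OCPs (46.4 ± 7.12 CPM, n = 3), with a log2 fold change of -1.51 ± 0.14 against the 4 populations (edgeR adjusted p = 1.69e-06). The level in S9-JAG1+ LMPs was as low (6.35 ± 0.752 CPM). None of the 5 tested protease genes was called, and they are named here after their values were seen. *Plat*, tissue plasminogen activator, was highest in S9-SCA-1+ cells (12.8 and 10.1 CPM, compared with 1.55-9.52 CPM over the other 12 libraries) and passed the p limit but not the fold limit (1.12 ± 0.22, edgeR adjusted p = 0.00116). The highest population mean was 6.15 CPM for *Plau* (urokinase), 1.61 CPM for *Hpn* (hepsin), 1.46 CPM for *St14* (matriptase) and 0.516 CPM for *Hgfac* (HGF activator).

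Among 13 relatives and co-receptors of MET other than *Met*, 11 were tested, 1 was called higher (4.46% of all genes) and 4 lower (6.80%) in S9-SCA-1+ cells, with a median log2 fold change of -0.18 compared with -0.01 over all genes. *Lrig1*, a negative regulator of receptor tyrosine kinases, was higher (275.4 ± 0.255 CPM; 1.47 ± 0.17, edgeR adjusted p = 9.64e-06). The semaphorin and VEGF co-receptors *Nrp1* and *Nrp2* were lower (-2.33 ± 0.13 and -2.05 ± 0.14, edgeR adjusted p = 8.84e-09 and 4.19e-08). *Plxnb1*, a semaphorin receptor that associates with MET, was lower as well (-1.27 ± 0.12), as was *Mst1r*, the kinase most closely related to MET (-1.73 ± 0.31). *Plxnb2*, with the highest mean of the list, was at 364.1 ± 42.9 CPM in S9-SCA-1+ cells and 462.3-514.6 CPM elsewhere and was not called (-0.41 ± 0.07).

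All 39 adaptor and signaling genes of MET other than *Gab1* were tested, with a median log2 fold change of -0.02. In S9-SCA-1+ cells 3 were called higher (4.46% of all genes) and 0 lower (6.80%). The 3 genes were *Ptprj*, a receptor tyrosine phosphatase that acts on MET (24.7 ± 0.134 CPM compared with 6.22-6.92 CPM elsewhere; 1.91 ± 0.10, edgeR adjusted p = 2.05e-09), *Pik3r1*, the regulatory subunit of PI3 kinase (1.51 ± 0.08, adjusted p = 2.09e-09), and *Sh3kbp1*, an adaptor in the internalization of receptor tyrosine kinases (1.26 ± 0.10, adjusted p = 3.37e-07). *Akt1*, with the highest mean of the list, was at 321.6-409.8 CPM in the 5 populations (0.19 ± 0.07, not called).

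Of 28 further CXC chemokines, receptors and CXCL12-cleaving proteases 15 were tested, 4 of which were called higher (4.46% of all genes) and 2 lower (6.80%) in S9-SCA-1+ cells. The median log2 fold change was 0.18, or -0.06 when the 5 genes with at most 3 counts in each library of a population were set to 3 counts per library there. *Cxcl14*, another chemokine, was at 1.46 ± 0.406 CPM in S9-SCA-1+ cells and 137.4 ± 28.9 CPM in chondroblasts (log2 fold change -4.69 ± 0.33 against the 4 populations, edgeR adjusted p = 8.25e-08). *Calcrl* and *Ramp2*, which together form the receptor of adrenomedullin, a peptide also scavenged by ACKR3, were higher (1.95 ± 0.08 and 1.59 ± 0.24, edgeR adjusted p = 3.38e-10 and 0.000113). Both genes are also known from endothelium, and the part of endothelial cells in these values was not tested. The adrenomedullin gene *Adm* (0.0534 CPM in S9-SCA-1+ cells), *Cxcl5* (2.37 ± 2.34 CPM) and the protease gene *Mmp9* (3.04 CPM) were also called, but each had a population with at most 3 counts in every library, and no fold is given. *Mmp2*, a protease that cleaves CXCL12 and has the highest mean of the list, was at 252.9-426.8 CPM in all populations and not called (0.18 ± 0.08).

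Of 40 signaling genes of CXCR4 33 were tested, with a median log2 fold change of -0.05, and 1 was called higher (4.46% of all genes) and 2 lower (6.80%). *Vav3*, an exchange factor for small GTPases, was higher in S9-SCA-1+ cells (12.5 ± 2.26 CPM; 1.66 ± 0.20, edgeR adjusted p = 1.42e-05). *Gng2*, a G protein subunit, and *Elmo1*, which acts with DOCK proteins on RAC, were lower (-1.27 ± 0.11 and -1.21 ± 0.26, edgeR adjusted p = 4.43e-07 and 0.00186). The most abundant, the G protein subunit *Gnb1*, was at 649.7-803.7 CPM in the 5 populations (-0.03 ± 0.09).

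Among 16 regulators of muscle precursor migration 8 had a called increase (4.46% of all genes) and 3 a called decrease (6.80%) in S9-SCA-1+ cells, with a median log2 fold change of 1.00 (-0.01 over all genes). *Pax3* (463.1 ± 49.3 CPM, log2 fold change 9.84 ± 0.23) and *Lbx1* (247.9 ± 21.0 CPM, 9.50 ± 0.10) differed more than *Met*. The cofactor genes *Eya1* and *Eya2* (6.54 ± 0.20 and 6.07 ± 0.11), the integrin gene *Itga4* (6.05 ± 0.12) and the muscle cadherin gene *Cdh15* (5.52 ± 0.18) lay near *Cxcr4*. The FGF receptor gene *Fgfr4* was higher by 3.02 ± 0.18, and the laminin receptor gene *Itga7* was lower (-2.49 ± 0.58). *Tcf12*, with the highest mean, was at 511.3-710.7 CPM in the 5 populations and not called (0.27 ± 0.06). The edgeR adjusted p of these 8 called genes ranged from 1.01e-16 (*Lbx1*) to 0.0039 (*Itga7*). The list overlaps with the muscle precursor markers in *Pax3*, *Lbx1* and *Eya2*, and was chosen with levels in these cells known.

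**Figure D5:**
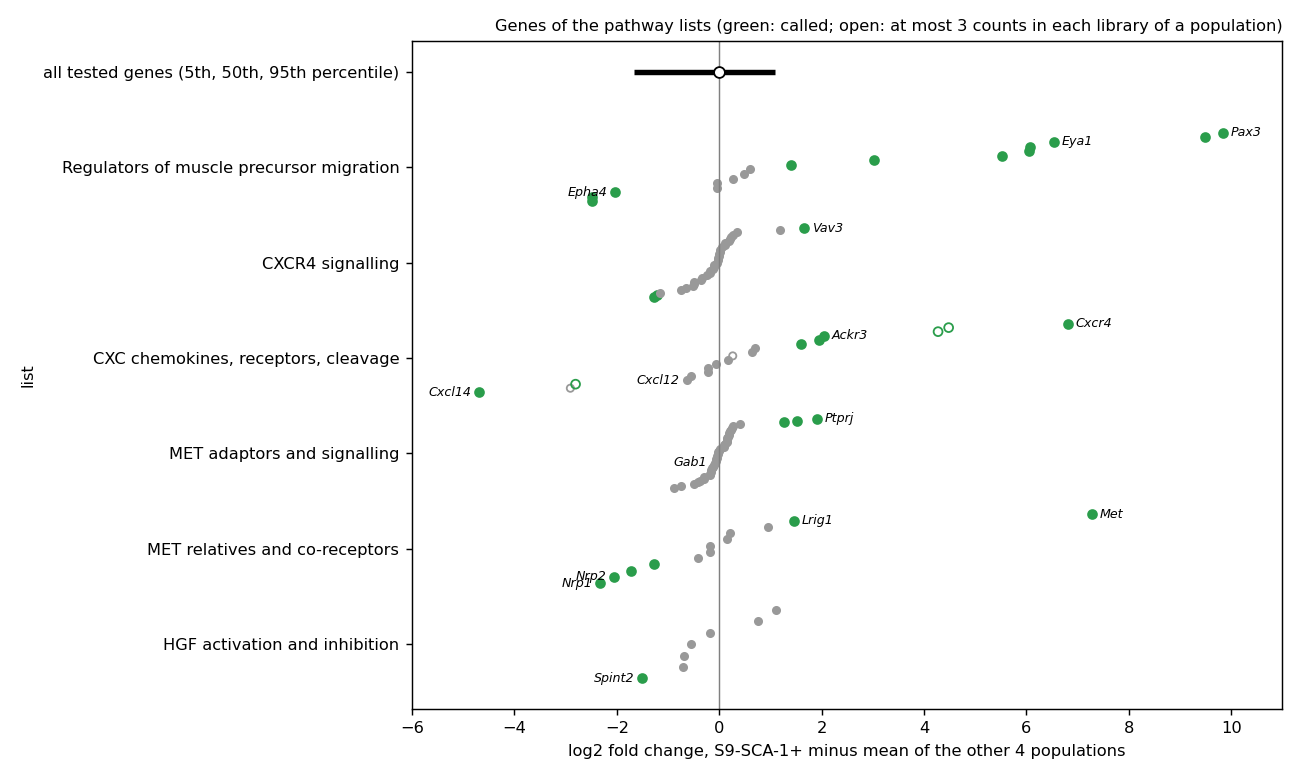
Log2 fold change of S9-SCA-1+ cells against the mean of the other 4 populations (horizontal) for the tested genes of the 6 pathway lists (vertical, genes within a list sorted by their value). Called genes are green and others gray, open circles have at most 3 counts in each library of a population, and the bar at the top spans the 5th to the 95th percentile of all tested genes (-1.66 to 1.08). *Met* (7.29) and *Cxcr4* (6.81) lie apart from their signaling lists, and migration regulators extend to 9.84 for *Pax3*.

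Genes were also ranked by the likeness of their log2 CPM to each member over the 14 libraries (Pearson correlation, a description only, as libraries of a population share their source). *Tbc1d4* (r = 0.984), which encodes a GTPase-activating protein of vesicle traffic, *Fhl1* (0.979), a LIM domain gene of muscle, and the tropomyosin gene *Tpm2* (0.978) were most like *Met*. The tubulin gene *Tubb2a* (0.984), the natriuretic peptide receptor gene *Npr1* (0.968) and again *Tpm2* (0.965) were most like *Cxcr4*. Both rankings rest on the distance of the 2 S9-SCA-1+ libraries from the other 12, and no gene kept its place among the 3 when ranks were used in place of levels. *Met* and *Cxcr4* correlated with each other at 0.953.

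The genes most like *Hgf* were *Eva1b* (0.963), the WNT agonist gene *Rspo2* (0.960) and the microtubule-severing gene *Fign* (0.940). *Rspo2* ran from 2.17 CPM in S9-SCA-1+ cells to 37.4 CPM in OCPs and fell to 8.61 CPM in chondroblasts, an order of levels close to that of *Hgf*. Most like *Cxcl12* were the pro-apoptotic gene *Bmf* (0.986), the reticulocalbin gene *Rcn3* (0.981) and the glycosyltransferase gene *Large2* (0.979). Most like *Ackr3* were the adaptor gene *Grb10* (0.970), the homeobox gene *Meox1* (0.970) and *Xrcc5* (0.966), a DNA repair gene. *Meox1* held 32.7 CPM in S9-SCA-1+ cells, 21.9 CPM in chondroblasts, 16.3 CPM in OCPs, 2.80 CPM in S9-Pαhi LMPs and 0.952 CPM in S9-JAG1+ LMPs. Unlike *Ackr3*, its mean was thus higher in chondroblasts than in OCPs. The genes most like *Gab1* were the parvin gene *Parva* (0.989), *Mxd4* (0.983), which encodes a partner of MAX, and the glutathione transferase gene *Gstm7* (0.982). Among the members, *Gab1* correlated with *Cxcl12* at 0.913 and *Cxcl12* with *Ackr3* at 0.816, while *Hgf* correlated with *Met* at -0.459 and with *Cxcl12* at 0.406.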

How the data were processed

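RNA-seq of 14 libraries from 5 sorted forelimb bud populations was used. According to the methods, the authors aligned single-end reads of poly(A)+ RNA with STAR to mm10, kept 1 position for reads with several, and deposited counts of reads that start in RefSeq exons (qCount of QuasR), without normalization. Of 24454 Entrez identifiers 24374 were matched to symbols, and the other 80 held 0.358% of the counts. Totals of 20316583 to 29162751 counts limit precision mainly for *Cxcr4*.

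The 6 members, all lists and the tests were chosen with earlier results of these data known. In R 4.3.3 with edgeR 4.0.16, 15125 genes passed filterByExpr, totals were scaled by TMM (factors 0.957 to 1.06) and a mean per population was fitted to all libraries with the quasi-likelihood F test. Benjamini-Hochberg adjustment covered all tested genes. Calls needed an adjusted p not above 0.1 and a log2 fold change of 1.2 or more in either direction (in the joint test, the largest difference between 2 populations). Standard errors are the log2 fold change over the root of F. CPM were computed on scaled totals, and RPKM used the deposited exon lengths. Log2 CPM for likeness had a prior count of 2. In each list, up to 8 called genes with the largest fold change and the gene with the highest mean were named, and for each member the 3 genes most like it. Some genes of the lists are not reported here and were left out of their counts and sums. The procedure was tested on simulated data. No 2 libraries of a population agreed within sampling noise (chi-square per degree of freedom at least 7.80). Same-numbered libraries of different populations did not deviate together (median correlation of deviations -0.00476 over 26 pairs, 4 of them over 0.1), so that numbers were not used as pairs. Gene positions are from RefSeq, and strands, exon unions and overlaps from GENCODE M21 (GRCm38). Promoter sequences are from RefSeq (GRCm38.p6) with all 6 genes matched. Alternatives were other scaling (DESeq2 1.42.0 size factors, library totals), no filter, the DESeq2 test, other limits, counts thinned to the smallest total, a replicate block, each library left out, populations left out, other exon lengths and rank correlation. Python 3.11.15, pandas 2.3.3 and matplotlib 3.10.9 made tables and figures.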

Additional observations from a re-analysis of the deposited data

How the results depend on the processing

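The 4 members called in S9-SCA-1+ cells against the other 4 populations numbered 4 under each alternative that kept the fold limit and 5 without that limit, and 4 to 4 with each library left out. The joint test called 5 members, or 5 to 6 with a library left out, and the pairs of populations gave 33 calls, 32 to 35 with a library left out and 48 without the fold limit. Low p-values were common over all 15125 tested genes, so the counts without the fold limit say little about the members. An unadjusted edgeR p below 0.05 was reached by 7119 genes in S9-SCA-1+ cells against the other 4 populations. In the pairs it was reached by 4365 to 9606 genes. A replicate block (no pairing is known from the labels) gave 4, 5 and 33 calls and changed no call among 72 differences. Of 1596 recomputed differences of a member 1557 kept their direction and call, 26 became called (16 of them by dropping the fold limit), 5 were lost and 8 changed direction. The 5 lost were all *Ackr3* in S9-JAG1+ minus S9-Pαhi LMPs, named above, with -1.13 on thinned counts and an unrounded value just under the limit without the filter. None of those that changed direction was called. *Gab1* in S9-SCA-1+ cells was at 0.12 with chondroblasts left out, against -0.113 to -0.0533 with single libraries left out. With single libraries left out, *Gab1* in S9-SCA-1+ cells minus S9-Pαhi LMPs ranged from -0.102 to 0.027, *Cxcr4* from -0.64 to 0.54 in S9-JAG1+ minus S9-Pαhi LMPs, from -1.05 to 0.37 in S9-JAG1+ LMPs minus OCPs (0.10 and 0.02 without S9-JAG1+ replicates 1 and 2) and from -0.75 to 0.17 in S9-Pαhi LMPs minus OCPs, and *Hgf* from -0.0698 to 0.40 in S9-JAG1+ LMPs minus chondroblasts. The causes were not tested. *Ackr3* in S9-SCA-1+ cells was 47.8 CPM with library totals (48.7 CPM on scaled totals). *Hgf* exceeded *Met* in 4 populations, and in 3 with GENCODE exon unions or with no length correction. With Spearman in place of Pearson correlation 0 of the 3 genes most like *Met* and *Cxcr4* were kept and 1 of 3 for each of the other members, and with a prior count of 0.5 all 3 were kept for *Ackr3*. Depth limits *Cxcr4* outside S9-SCA-1+ cells, where 7 to 49 counts per library leave differences between populations to single libraries.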

Other observations

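S9-JAG1+ LMPs, the population with the lowest *Met*, *Gab1*, *Cxcl12* and *Ackr3*, had the highest mean of 3 guidance genes of the same lists, which are named here after their values were seen. *Nrp2* was at 687.8 ± 82.3 CPM (SD, n = 3) in S9-JAG1+ LMPs, and at 81.9 CPM in S9-SCA-1+ cells and 176.3-375.6 CPM in the other populations. *Epha4*, an ephrin receptor with a known role in the routing of muscle precursors and limb nerves, was at 616.9 ± 84.8 CPM, compared with 66.6 CPM in S9-SCA-1+ cells and 168.7-281.4 CPM in the others. *Sema4d*, a semaphorin that binds plexin B1, was at 30.2 ± 2.84 CPM, compared with 10.1-16.6 CPM elsewhere. The trait did not hold for all guidance genes of these lists. *Nrp1* was also highest in S9-JAG1+ LMPs, but by little (107.5 CPM, compared with 80.1-95.4 CPM in the other mesenchymal populations). *Plxnb1* was highest in OCPs and *Plxnb2* in S9-Pαhi LMPs.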
